A study of Mus musculus with 18 samples.

Results

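Pparg, Adipoq and Fabp4 are 3 of the genes most used to tell adipocytes from their precursors, and their transcript levels were followed across the 6 groups of an RNA sequencing experiment on 3T3-L1 cells, mouse fibroblasts in culture that turn into fat cells when given a hormone mix. Their gene models were found by position on mouse build mm9, as the gene model with the most exon bases inside a given interval at each locus. Each interval held 1 gene model, so 3 of the 27473 gene models of the deposited table are described. The table holds no symbols, and the 3 names rest on these positions.

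Pparg encodes the nuclear receptor PPARγ, which binds DNA with a retinoid X receptor partner and is required for the formation and upkeep of adipocytes. Adipoq encodes adiponectin, a hormone that adipocytes secrete and that raises insulin sensitivity in liver and muscle. Fabp4 encodes a cytoplasmic fatty acid binding protein that is very abundant in adipocytes. Both Adipoq and Fabp4 are known target genes of PPARγ, and inflammatory signals are known to lower PPARγ activity in adipocytes.

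All 18 libraries came from differentiated 3T3-L1 adipocytes at passage 15 that were given lentivirus for 6 days. Irf3_2D cells are labelled as overexpressing Irf3, and the meaning of 2D is not stated. EGFP cells were their controls. The shIrf3_LPS cells carried a hairpin against Irf3 and received lipopolysaccharide (LPS), a bacterial cell wall component sensed by Toll-like receptor 4, and shLuc_LPS cells are labelled as the knockdown control with LPS. The shIrf3 and shLuc cells are the same without LPS. IRF3 is a transcription factor of the innate immune response that acts downstream of that receptor. LPS was given for another 6 days, a time stated for the knockdown cells, and whether cells without LPS were kept as long is not given in the sources used here, so the effects of LPS and of the longer culture cannot be told apart. Each group has 3 libraries. Whether these are separate cultures is not stated, and the p-values therefore describe the spread between libraries, which may be technical. The level of Irf3 itself was not analysed here.

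Libraries held from 22143302 to 34368259 counts. The share of counts on the mitochondrial chromosome lay between 2.17% and 7.17% in 17 libraries and was 14.2% in shLuc replicate 1. Irf3_2D replicate 2 was the shallowest library. Because these are bulk samples of a differentiated culture, fewer adipocytes and less RNA per adipocyte cannot be told apart in any value below.

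The Pparg gene model (uc009dis.2) lies on chromosome 6 from 115311239 to 115440419 on the plus strand of mm9, with 9 exons and 2297 exon bases. The Adipoq gene model (uc007ytk.1) lies on chromosome 16 from 23146609 to 23158041 on the plus strand, with 3 exons and 1232 exon bases. The Fabp4 gene model (uc008opl.2) lies on chromosome 3 from 10204343 to 10208576 on the minus strand, with 4 exons and 641 exon bases. As a check of the names, exon lengths were set beside those that GENCODE M21 (build GRCm38) lists for the same symbols. The same length was found for 7 of 9 Pparg exons, 2 of 3 Adipoq exons and 3 of 4 Fabp4 exons. No other gene model overlapped any of the 3 on either strand. Reads are summed over all exons of a gene model, so transcripts from different Pparg promoters are not separated.

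RefSeq promoter windows of build GRCm38.p6 were found for Pparg, with 3 starts, and for Adipoq, with 1 start. Each runs from 250 bases before to 50 bases after the annotated start. None was found for Fabp4. The most downstream Pparg window, at chr6:115421816-115422115 on the plus strand, and the Adipoq window, at chr16:23146286-23146585 on the plus strand, are shown. Capitals mark matches, on either strand, to AGGTCA (the hexamer that nuclear receptors such as PPARγ bind), TTGCNNAA (bound by C/EBP factors), CCAAT (the CCAAT box) or AANNGAAA (bound by IRF factors).
Pparg: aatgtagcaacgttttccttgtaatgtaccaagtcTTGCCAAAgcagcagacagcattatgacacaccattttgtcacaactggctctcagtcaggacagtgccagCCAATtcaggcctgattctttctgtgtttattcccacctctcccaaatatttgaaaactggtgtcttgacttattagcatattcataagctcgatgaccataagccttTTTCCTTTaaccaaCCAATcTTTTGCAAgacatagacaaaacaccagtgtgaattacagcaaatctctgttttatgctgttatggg
Adipoq: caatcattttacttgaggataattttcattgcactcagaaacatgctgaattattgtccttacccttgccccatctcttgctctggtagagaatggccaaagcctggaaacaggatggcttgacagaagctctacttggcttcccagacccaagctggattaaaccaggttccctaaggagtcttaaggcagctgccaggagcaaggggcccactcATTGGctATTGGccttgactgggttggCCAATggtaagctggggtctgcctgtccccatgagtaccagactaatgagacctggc

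The Pparg window held TTGCNNAA matches at -215 and -16, CCAAT matches at -144 and -22, and an AANNGAAA match at -36, where -1 is the base before the start. The Adipoq window held 3 CCAAT matches, at -34, -27 and -7. No 2 matches overlapped in either window. Of the 32851 windows of this length in the table, 10.8% held TTGCNNAA, 37.4% held CCAAT, 16.3% held AGGTCA and 23.9% held AANNGAAA. AGGTCA was found in each of the other Pparg windows, at -28 and at -9. Of the 3 Pparg windows, the one shown held the most matches, 5, and the only match to AANNGAAA. That motif replaced a longer and rarer form after the longer form had no match in these windows. These are matches of letters only, and binding was not measured.

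All 3 genes were read at high depth in every library, with at least 4315 counts for Pparg, 18615 for Adipoq and 61426 for Fabp4. On the scale of CPM (counts scaled to a common library size, as in the levels plot) per kilobase of exon, which corrects for gene length, Fabp4 ranged from 4699 to 17196 and ranked between 1 and 3 among 15083 gene models. Adipoq ranged from 564 to 1966 on that scale and ranked between 9 and 85. Pparg, which encodes a transcription factor, ranged from 77.9 to 155 and ranked between 396 and 714. The libraries, labelled as differentiated adipocytes, thus carried high levels of these 3 adipocyte markers. Fabp4 took 0.277% to 0.374% of all counts in Irf3_2D libraries, against 0.623% to 0.728% in EGFP libraries.

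**Figure D1:**
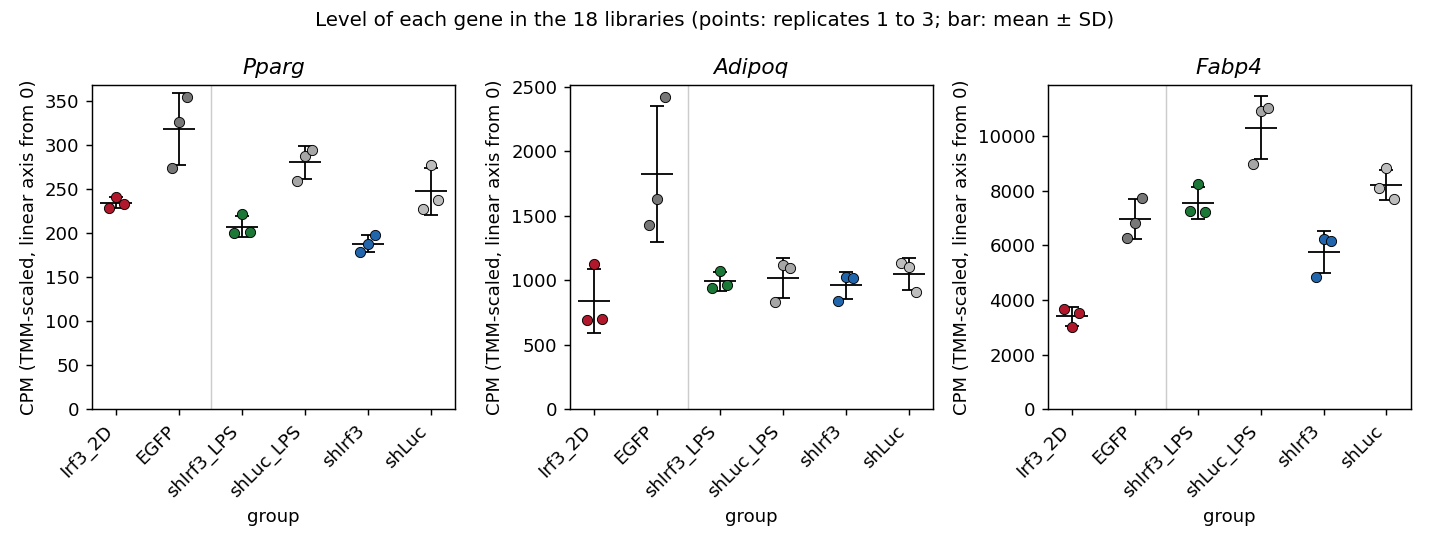
Level of Pparg, Adipoq and Fabp4 in CPM (scaled by TMM over 18 libraries, linear axis from 0) in the 6 groups, with points for libraries and bars for mean ± SD (n = 3). Irf3_2D libraries lie below EGFP libraries for all 3 genes, and shIrf3 libraries below shLuc libraries, with and without LPS, for Pparg and Fabp4. For Adipoq the 4 groups to the right overlap in these comparisons.

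The highest group mean over the lowest was 3.03 for Fabp4, 2.17 for Adipoq and 1.69 for Pparg on the CPM scale. These ratios and the orders below set Irf3_2D and EGFP beside the 4 hairpin groups, which had their own control. The controls themselves were apart in Adipoq, at a mean of 1826 CPM in EGFP and 1050 CPM in shLuc libraries. A place in the order across these sets thus cannot be read as an effect of Irf3 or LPS. For Pparg the order from high to low was EGFP, shLuc_LPS, shLuc, Irf3_2D, shIrf3_LPS and shIrf3. The first 4 of these groups each overlapped their neighbour in range, and the lower neighbours did not overlap. For Adipoq the order was EGFP, shLuc, shLuc_LPS, shIrf3_LPS, shIrf3 and Irf3_2D. EGFP stood apart there, and every later pair of neighbours overlapped. For Fabp4 the order was shLuc_LPS, shLuc, shIrf3_LPS, EGFP, shIrf3 and Irf3_2D. The shLuc and shIrf3_LPS ranges overlapped, as did the shIrf3_LPS and EGFP ranges, and the other neighbours were separate.

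Overexpression was examined first, by setting Irf3_2D against EGFP. All 3 genes had lower values in every Irf3_2D library than in any EGFP library, and the decrease passed the test for Fabp4. A separation in this direction was found for 8.07% of the 15083 gene models that passed the low-count filter over all 18 libraries. Pparg was at 229, 241 and 234 CPM in Irf3_2D libraries, against 274, 326 and 355 CPM in EGFP libraries. The Irf3_2D libraries lay close together, and EGFP replicate 1 came nearest to them. Adipoq was at 694, 1125 and 700 CPM in Irf3_2D libraries, against 1426, 1629 and 2422 CPM in EGFP libraries. Irf3_2D replicate 2 was the highest of its group, and EGFP replicate 3 was far above the others. Fabp4 was at 3681, 3012 and 3510 CPM in Irf3_2D libraries, against 6276, 6830 and 7724 CPM in EGFP libraries. For this gene Irf3_2D replicate 2 was the lowest of its group.

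Fabp4 fell in Irf3_2D cells to 0.489 of the EGFP level, a log2 fold change of -1.03 ± 0.17 (SE, n = 3 each, edgeR adjusted p = 0.0264, 95% interval from -1.42 to -0.64). Adipoq had a log2 fold change of similar size, -1.12 ± 0.26, which missed the threshold of 0.05 (edgeR adjusted p = 0.0807, 95% interval from -1.70 to -0.54). Pparg was at 0.735 of the EGFP level, with a log2 fold change of -0.44 ± 0.13 (edgeR adjusted p = 0.195). Of the 3 members 1 was called lower, where 0.639% of the 13931 gene models tested were called lower. The median log2 fold change over all of them was 0.02, and 0.854% of gene models had a lower value than Adipoq, 1.11% a lower value than Fabp4 and 6.70% a lower value than Pparg.

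These calls moved with single libraries, while the fold changes kept their direction. Without Irf3_2D replicate 2 all 3 genes were called, with log2 fold changes of -0.47 for Pparg, -1.40 for Adipoq and -0.96 for Fabp4 (edgeR adjusted p = 0.0344, 0.00316 and 0.00398). Calls over all gene models were more frequent in that fit as well, with 3.85% of 14226 called lower. The Fabp4 call was lost when Irf3_2D replicate 1 or 3, or EGFP replicate 2 or 3, was left out, at log2 fold changes between -1.09 and -0.96 and edgeR adjusted p between 0.0940 and 0.152. Adipoq was called by DESeq2 (adjusted p = 0.000547), which called more gene models lower than edgeR did, 1.76% against 0.639% of 13931. With replicate number added to the fit as a block, Fabp4 narrowly missed the threshold (-1.03, edgeR adjusted p = 0.0502).

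Knockdown was examined next, by setting shIrf3 against shLuc without LPS. Pparg fell by 24.7% and Fabp4 fell by 30.7%, whereas Adipoq did not pass the test. Pparg was at 179, 188 and 198 CPM in shIrf3 libraries, against 228, 278 and 237 CPM in shLuc libraries. The groups did not overlap, and shLuc replicate 2 was the highest. Fabp4 was at 4852, 6223 and 6165 CPM in shIrf3 libraries, against 8095, 8811 and 7699 CPM in shLuc libraries. These groups were separate as well, and shIrf3 replicate 1 was the lowest. Adipoq was at 843, 1023 and 1019 CPM in shIrf3 libraries, against 1136, 1103 and 909 CPM in shLuc libraries, and the groups overlapped.

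The log2 fold change of Pparg with knockdown was -0.41 ± 0.08 (SE, n = 3 each, edgeR adjusted p = 0.00399). That of Fabp4 was -0.53 ± 0.12 (edgeR adjusted p = 0.0100). Adipoq had a log2 fold change of -0.14 ± 0.12 (edgeR adjusted p = 0.512), and its 95% interval ran from -0.39 to 0.10. So 2 of the 3 members were called lower, where 3.91% of the 14970 gene models tested were called lower. Groups separated in this direction for 10.2% of the 15083 gene models with CPM levels.

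The control libraries of this comparison differed in mitochondrial counts, with 6.53% to 7.17% in shIrf3 libraries against 14.2%, 2.88% and 5.19% in shLuc libraries. With the mitochondrial gene models left out, the log2 fold changes were -0.39 for Pparg and -0.51 for Fabp4, and both calls held. Without shLuc replicate 1 they were -0.45 and -0.52, and without shLuc replicate 2 they were -0.33 and -0.49, with both called in each case. The Fabp4 call ended without shIrf3 replicate 1 (log2 fold change -0.43, edgeR adjusted p = 0.0684) and when the 6 libraries were fitted alone (-0.52, edgeR adjusted p = 0.0566). The Pparg call held in the 6-library fit and in a fit of all 18 libraries, at -0.40 in each. Its edgeR adjusted p was weaker there, at 0.0371 and 0.0427.

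Under LPS the same comparison, shIrf3_LPS against shLuc_LPS, was made in libraries that none of the preceding comparisons contain. Both knockdown comparisons come from one fit with a shared estimate of the spread, so their p-values are not independent. Pparg fell by 24.7% and Fabp4 fell by 25.3%, and Adipoq did not pass the test. Pparg was at 200, 221 and 201 CPM in shIrf3_LPS libraries, against 259, 288 and 295 CPM in shLuc_LPS libraries. Fabp4 was at 7235, 8228 and 7210 CPM in shIrf3_LPS libraries, against 8987, 10889 and 11023 CPM in shLuc_LPS libraries. The groups were separate for both genes, and shLuc_LPS replicate 1 was the lowest of its group for each. Adipoq was at 943, 1074 and 961 CPM in shIrf3_LPS libraries, against 836, 1120 and 1096 CPM in shLuc_LPS libraries. Here the shIrf3_LPS values lay inside the range of the controls.

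The log2 fold change of Pparg in shIrf3_LPS cells was -0.41 ± 0.08 (SE, n = 3 each, edgeR adjusted p = 0.00363). That of Fabp4 was -0.42 ± 0.12 (edgeR adjusted p = 0.0341). Adipoq had a log2 fold change of -0.01 ± 0.12 (edgeR adjusted p = 0.976, 95% interval from -0.26 to 0.23). Among the 14970 gene models tested 3.31% were called lower, against 2 of the 3 members. Groups separated in this direction for 20.7% of the 15083 gene models with CPM levels. The Fabp4 call ended without shIrf3_LPS replicate 1 or 3 or without shLuc_LPS replicate 2 or 3, with log2 fold changes from -0.40 to -0.37 and edgeR adjusted p from 0.138 to 0.149. It also ended with all 18 libraries in one fit, at -0.45 (edgeR adjusted p = 0.0885). The Pparg call held without any 1 of the 12 libraries, in both knockdown comparisons. Libraries outside a comparison enter these fits mainly through the shared spread, so leaving them out could hardly move the fold change.

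**Figure D2:**
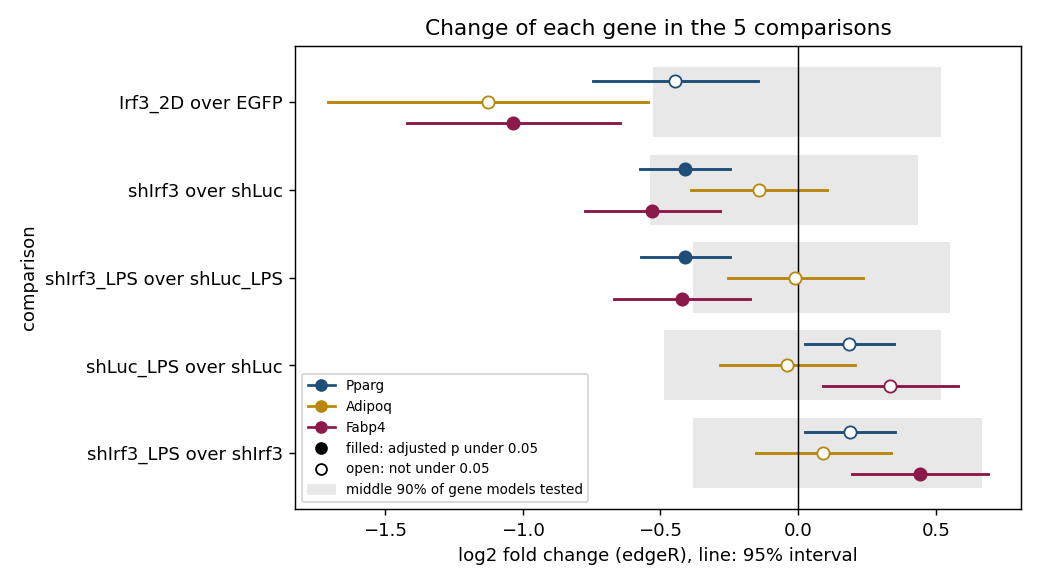
Log2 fold change (edgeR) of each gene in the 5 comparisons, with lines for the 95% interval, filled points for an adjusted p under 0.05 and grey bars for the middle 90% of the gene models tested. Pparg and Fabp4 are to the left of 0 in the overexpression comparison and in both knockdown comparisons, from -1.03 to -0.41, and to the right of 0 in both LPS comparisons.

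The response to LPS was measured against cells with the same hairpin, so these comparisons share libraries with the knockdown comparisons above. In shIrf3 cells Fabp4 rose with LPS. It was at 7235, 8228 and 7210 CPM in shIrf3_LPS libraries, against 4852, 6223 and 6165 CPM in shIrf3 libraries, with no overlap. With 8987, 10889 and 11023 CPM in shLuc_LPS libraries against 8095, 8811 and 7699 CPM in shLuc libraries, Fabp4 was also separate between groups in control cells, and shLuc replicate 2 came closest to the LPS libraries. Its log2 fold change was 0.44 ± 0.12 in shIrf3 cells (SE, n = 3 each, edgeR adjusted p = 0.0253) and 0.33 ± 0.12 in shLuc cells (edgeR adjusted p = 0.0892). The share of gene models called higher was 4.17% in shIrf3 cells and 4.27% in shLuc cells. Groups separated in this direction for 13% and 9.98% of the 15083 gene models with CPM levels.

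Pparg had similar log2 fold changes with LPS, of 0.19 ± 0.08 in shIrf3 cells (SE, n = 3 each, edgeR adjusted p = 0.157) and 0.19 ± 0.08 in shLuc cells (edgeR adjusted p = 0.162), and neither was called. Its shIrf3_LPS libraries, at 200 to 221 CPM, lay above the shIrf3 libraries, at 179 to 198 CPM. Its shLuc_LPS libraries overlapped the shLuc libraries. For Adipoq the log2 fold change was 0.09 ± 0.12 in shIrf3 cells and -0.04 ± 0.12 in shLuc cells (edgeR adjusted p = 0.711 and 0.904). The 95% intervals ran from -0.15 to 0.34 and from -0.28 to 0.21, and both include 0.

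The Fabp4 call in shIrf3 cells ended without shIrf3 replicate 1 or without any shIrf3_LPS library, with log2 fold changes from 0.34 to 0.48 and edgeR adjusted p from 0.0528 to 0.140, and with all 18 libraries in one fit, at 0.40 (edgeR adjusted p = 0.121). In shLuc cells Fabp4 was called without shLuc replicate 2 (0.36, edgeR adjusted p = 0.0427) and by DESeq2 (0.33, adjusted p = 0.0207). Without the same library Pparg was called with LPS in shLuc cells (0.25, edgeR adjusted p = 0.0140) and in shIrf3 cells (0.19, edgeR adjusted p = 0.0333). Calls over all gene models were more frequent in that fit, with 6.47% of 15178 called higher in shLuc cells and 7.18% in shIrf3 cells. The library left out is not part of the shIrf3 comparison and enters it mainly through the shared spread. DESeq2 called 4.58% of 14970 gene models higher in shLuc cells.

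Whether LPS acted differently in the knockdown cells was tested as an interaction, which is at the same time the test of whether knockdown acted differently under LPS. The difference between the log2 fold changes was 0.00 ± 0.11 for Pparg, 0.13 ± 0.16 for Adipoq and 0.11 ± 0.16 for Fabp4 (SE, 3 libraries in each of 4 groups), with edgeR adjusted p of 0.999, 0.991 and 0.997. The 95% intervals ran from -0.23 to 0.23, from -0.22 to 0.48 and from -0.24 to 0.45. No gene model of 14970 was called (0%) by edgeR, with 848 at an unadjusted p under 0.05, and DESeq2 called 15 and limma-voom 0.

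Ratios between the 3 genes were compared, as a description of whether they moved in proportion. Ratios of their raw counts within a library do not depend on how libraries are scaled. Adipoq had 16.8 ± 0.520 counts per 100 Fabp4 counts in shIrf3 libraries and 12.8 ± 1.14 in shLuc libraries (SD, n = 3 each). The ratio was 13.1 ± 0.165 in shIrf3_LPS libraries and 9.84 ± 0.500 in shLuc_LPS libraries. It was thus higher with knockdown in each setting and lower with LPS in each hairpin, with no overlap between groups in any of these 4 comparisons. Each had an exact two-sided permutation p of 0.1, the smallest that 3 against 3 libraries can give. In 15 such comparisons p-values of this size cannot pass a correction. The 4 comparisons also share libraries, and how often ratios of other genes separate was not examined.

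In the overexpression arm the Adipoq count per 100 Fabp4 counts was 18.9, 37.3 and 19.9 in Irf3_2D libraries, against 22.7, 23.9 and 31.4 in EGFP libraries. Irf3_2D replicate 2 was the highest of all 6, and the other Irf3_2D libraries were below every EGFP library. Pparg had 6.22, 8.01 and 6.65 counts per 100 Fabp4 counts in Irf3_2D libraries, against 4.37, 4.77 and 4.60 in EGFP libraries, and the groups were separate (exact permutation p = 0.1). In the knockdown arm this ratio was at 3.31 ± 0.342 in shIrf3 and 3.02 ± 0.180 in shLuc libraries, and at 2.75 ± 0.0526 in shIrf3_LPS and 2.73 ± 0.130 in shLuc_LPS libraries (SD, n = 3 each). Of the 4 comparisons in this arm, groups were separate for LPS in shIrf3 cells, where the ratio was 0.832 of that without LPS (exact permutation p = 0.1). The mean count of Adipoq per count of Pparg was 3.56 in Irf3_2D and 5.67 in EGFP libraries, and 4.78 in shIrf3_LPS and 3.61 in shLuc_LPS libraries, with separate groups in both comparisons (exact permutation p = 0.1 each). For knockdown without LPS and for LPS in either hairpin the groups overlapped in this ratio.

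**Figure D3:**
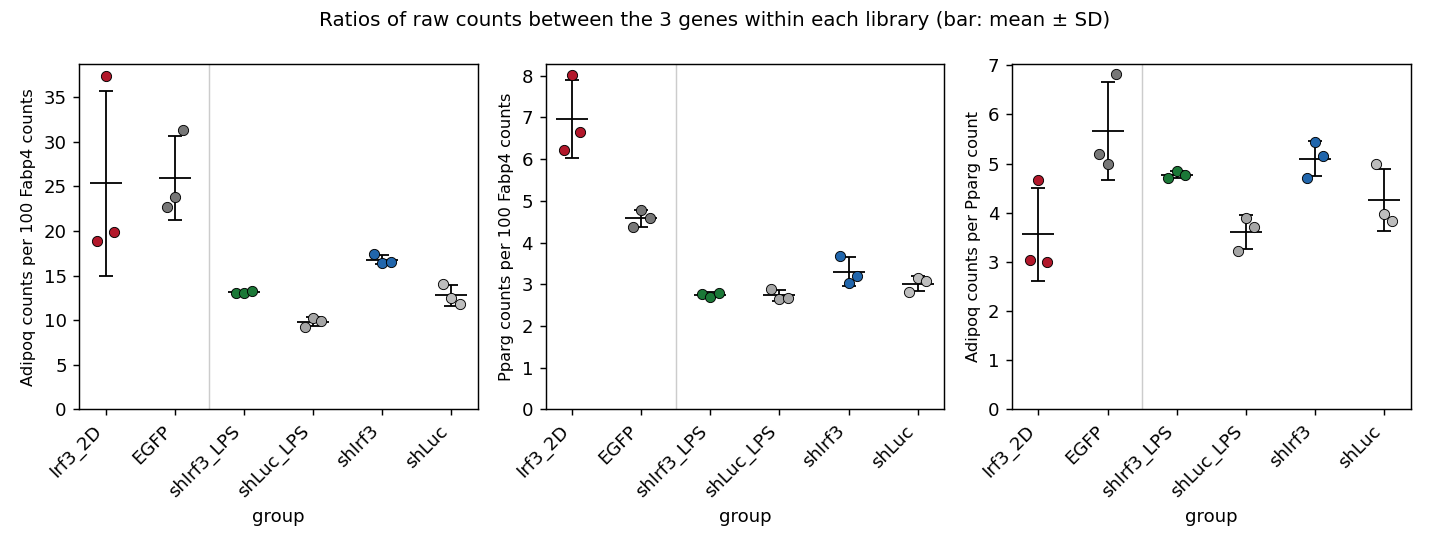
Ratios of raw counts between the 3 genes in each library (linear axes from 0), with points for libraries and bars for mean ± SD (n = 3). Adipoq counts per 100 Fabp4 counts are higher in shIrf3_LPS than in shLuc_LPS libraries and higher in shIrf3 than in shLuc libraries, and Irf3_2D replicate 2 stands apart at 37.3.

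Across the 18 libraries, with the mean of each arm subtracted, log2 CPM of Pparg and Fabp4 correlated with Pearson's r = 0.904, that of Adipoq and Fabp4 with 0.708 and that of Pparg and Adipoq with 0.632. These are descriptions over libraries that share groups and scaling. Within the 12 libraries of the knockdown arm Adipoq was less closely tied, with r = 0.515 to Fabp4 and 0.426 to Pparg, where r between Pparg and Fabp4 was 0.935. Within the 6 libraries of the overexpression arm Adipoq had r = 0.841 to Fabp4 and 0.941 to Pparg, where r between Pparg and Fabp4 was 0.920.

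Among the other gene models with a mean of at least 5 CPM, the one most like each gene by the same measure was picked out. Each was chosen over the same 18 libraries, so its changes follow in part from that choice and are given as descriptions, with no test. For Pparg it was uc008tfx.1 on chromosome 4 (63005600 to 63009196, 6 exons, r = 0.976). Its log2 fold change was -0.84 with overexpression, -0.70 with knockdown and -0.71 with knockdown under LPS. With LPS it was 0.46 in shIrf3 cells and 0.47 in shLuc cells. For Fabp4 it was uc007gaj.2 on chromosome 10 (79353598 to 79355401, 5 exons, r = 0.941). This gene model was at 587 ± 69.1 CPM in Irf3_2D and 2281 ± 341 CPM in EGFP libraries (SD, n = 3 each), a log2 fold change of -1.96. For Adipoq it was uc007ofk.1 on chromosome 12 (85750018 to 85791900, 24 exons, r = 0.953). Its exons lie on both strands, so it can hold reads of overlapping genes. The files do not pair these identifiers with gene names.

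The nearest tested gene models beside each gene were examined for changes of the whole locus. The gene model 78595 bases before Pparg moved in the direction of Pparg, and more strongly. Its log2 fold change was -1.11 with overexpression, -0.69 with knockdown and -1.21 with knockdown under LPS (edgeR adjusted p = 0.0331, 0.000181 and 7.98e-07). With LPS it was 0.51 in shIrf3 and 1.02 in shLuc cells (edgeR adjusted p = 0.000927 and 3.10e-07). The gene model 54303 bases after Pparg was called in none of the 5 comparisons, with log2 fold changes from -0.02 to 0.15. Neither neighbour of Adipoq was called. The one 17312 bases after it averaged 0.331 CPM in the overexpression arm and 0.613 CPM in the knockdown arm. Its log2 fold changes ran from -1.09 to 1.28, and at such levels the lack of a call says little. The neighbours of Fabp4 averaged under 3 CPM, and each was called once, at -0.92 with knockdown (edgeR adjusted p = 0.0342) for the one 35633 bases away and at 0.75 with LPS in shIrf3 cells (edgeR adjusted p = 0.0175) for the one 2377 bases away.

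**Figure D4:**
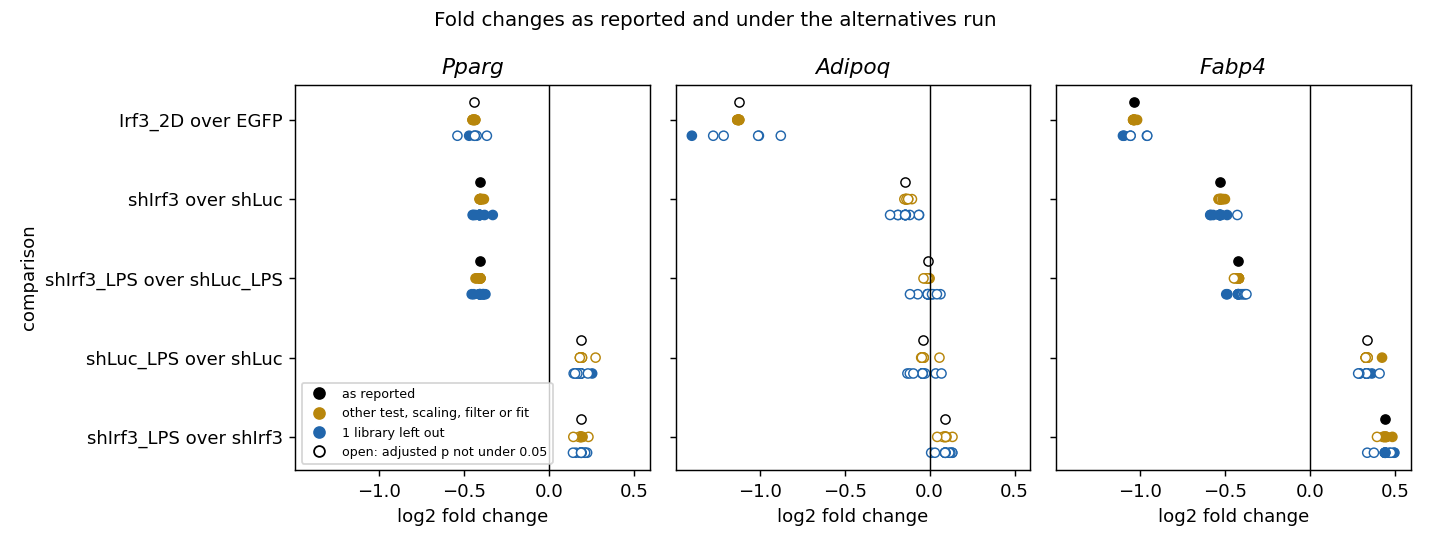
Log2 fold change of each gene in the 5 comparisons as reported (black), with another test, scaling, filter or choice of libraries (gold) and with 1 library left out (blue), where filled points have an adjusted p under 0.05. Pparg and Fabp4 stay on their side of 0 in all of them, and Adipoq lies on both sides of 0 in the shIrf3_LPS and shLuc_LPS comparison and with LPS in shLuc cells.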

How the data were processed

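The submitters' processing notes name TopHat2 2.0.14, featureCounts 1.4.6, SAMtools 0.1.19 and build mm9, without settings. Libraries were made from 70 ng of total RNA after depletion of ribosomal RNA, with a kit that keeps no strand, per the labels' protocols. The deposited values are raw counts per gene model. The 3 genes, the comparisons and the alternatives were chosen with earlier results of these data known.

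The test was edgeR's quasi-likelihood F test (edgeR 4.0.16, R 4.3.3) after filterByExpr and TMM scaling. P-values were adjusted by Benjamini-Hochberg over every gene model tested, and calls were made under 0.05. Irf3_2D and EGFP (6 libraries) were fitted apart from the 4 knockdown and LPS groups (12 libraries). Standard errors are the size of the log2 fold change over the square root of F. CPM levels use TMM over 18 libraries, and log2 CPM a prior count of 2. Alternatives used DESeq2 1.42.0, limma-voom (limma 3.58.1), other scalings, filters and fits, and libraries left out. Tested on simulated data, this step recovered, for overexpression (13931 gene models), 17.9% of 1.5-fold, 83.6% of 2-fold and 100% of 4-fold changes. For knockdown (14970) it recovered 86.6%, 100% and 100%. All simulated gene models had one common spread per fit and no deviant library. Recovery can be lower for a more variable gene, such as Adipoq, whose SD was 29.4% of the mean in Irf3_2D and 28.8% in EGFP libraries. No replicate pair was counted as 1 sample, since all differed by more than sampling noise (lowest chi-square per degree of freedom 3.38), which does not show that they are separate cultures. In the 12-library fit these values ran from 55.9 to 350 within shLuc and were at most 15.6 within the other groups. The shared spread of that fit thus pools unlike groups. The 3 members are named always, and besides them the gene model with the highest correlation to each. No gene list other than the members was used, since 0 of 27473 identifiers occurred in the name tables. Promoter motifs were searched as spelled in the text. The IRF motif, AANNGAAA, replaced a longer and rarer form after that form had been searched and had no match in these windows.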

Additional observations from a re-analysis of the deposited data

How the results depend on the processing

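Of 372 values of the 3 genes under the alternatives, 324 kept their direction and their side of the threshold. A further 17 lost a call and 12 gained one. Another 19 changed sign, all of them for Adipoq or the Pparg interaction and none of them called. Many fits of the knockdown arm left out a library outside the comparison, where the fold change could hardly move, so the share of unchanged values overstates the agreement. For overexpression, Pparg was called with all 18 libraries in one fit (-0.44), Adipoq by DESeq2 (-1.13), with no low-count filter (-1.12) and with all 18 libraries (-1.12), and Fabp4 lost its call with the replicate block (-1.03). Fabp4 lost its call for knockdown with only the 6 libraries compared (-0.52), for knockdown under LPS with all 18 libraries (-0.45) and for LPS in shIrf3 with all 18 libraries (0.40). Fabp4 was called for LPS in shLuc by DESeq2 (0.33) and with library totals only (0.42), and Pparg for LPS in shIrf3 with only the 6 libraries compared (0.19). Adipoq changed sign for knockdown under LPS in limma-voom (0.000235) and for LPS in shLuc with library totals only (0.0583). The Pparg interaction changed sign in limma-voom (-0.00108), with library totals only (-0.0421), with the replicate block (-0.000828), without chromosome M gene models (-0.0164) and with all 18 libraries (-0.0383). The cause of these was not tested.

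With each library left out in turn, the log2 fold changes of Pparg lay between -0.54 and -0.37 (overexpression), 0.14 and 0.25 (LPS in shLuc), 0.14 and 0.22 (LPS in shIrf3), and -0.0614 and 0.0458 (interaction). Those of Adipoq lay between -1.40 and -0.88 (overexpression), -0.232 and -0.0618 (knockdown), -0.115 and 0.0642 (knockdown under LPS), -0.130 and 0.0703 (LPS in shLuc), 0.00952 and 0.134 (LPS in shIrf3), and 0.0244 and 0.221 (interaction). Those of Fabp4 lay between -1.10 and -0.96 (overexpression), -0.59 and -0.43 (knockdown), -0.49 and -0.37 (knockdown under LPS), 0.28 and 0.41 (LPS in shLuc), 0.34 and 0.50 (LPS in shIrf3), and 0.00488 and 0.164 (interaction).

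Calls over all gene models moved more: 202 for overexpression became 481 in DESeq2, 942 with all 18 libraries and 5 to 1021 with a library left out. The 1281 for knockdown became 436 with the 6 libraries, 386 with all 18 and 510 to 2744, and the 1228 for knockdown under LPS became 2848, 378 and 536 to 2239, or 797 with library totals only. The 1305 for LPS in shLuc became 668, 695 and 805 to 2132, and the 1199 for LPS in shIrf3 became 2890, 621 and 706 to 2231. The calls for the interaction, 0 here, numbered 15 in DESeq2, 3 with no low-count filter, 1 with library totals only, 1 without chromosome M and 0 to 16 with a library left out. Library totals only changed the split of higher to lower calls to 704 and 345, against 696 and 585, for knockdown, to 823 and 321, against 639 and 666, for LPS in shLuc, and to 592 and 313, against 624 and 575, for LPS in shIrf3. Same-numbered replicates correlated from -0.187 to 0.225 in their deviations. This gives no clear sign that the numbers pair the samples, but with 3 libraries per group it cannot exclude pairing. The replicate block, at 236 calls for overexpression and 1392 for knockdown, ended no call of the 3 genes other than that of Fabp4 for overexpression. With library totals only, another gene model was most like Fabp4 (r = 0.943), an alternative chosen after seeing the data.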
